A study of Homo sapiens with 21 samples.

Results

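HNRNPK binding sites made up of cytosine for at least 50% of their length were selected from the PAR-CLIP clusters of 4 libraries. A cluster is a group of overlapping reads with T-to-C changes, and each cluster of 20 nt or longer on a standard chromosome was counted as cytosine-rich when its deposited sequence was at least 50% C. This held for 45709 of 773262 clusters, or 5.91%, among 778762 clusters deposited in all. The choice used the sequence and the length alone, and no read count entered it. They came from the breast cancer cell line MDA-MB-231, a triple-negative and long established one, used as parental cells or as *KRT19* KO cells, in which the keratin 19 gene was disrupted with CRISPR/Cas9. Whether the KO line was 1 clone is not given in the sources used here. All cells were fed 4-thiouridine (4SU), a uridine analogue that crosslinks to bound protein under UV light and is then read as C in place of T, and HNRNPK was immunoprecipitated from a cytoplasmic and a nuclear fraction. There was 1 library per condition, so no difference between conditions has a replicate check, no test between conditions was run, and the 95% Wilson intervals given below cover counting error only.

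HNRNPK carries KH domains, RNA-binding folds whose groove accepts a short run of pyrimidines with a strong preference for cytosine. With the PCBP proteins it forms the family of poly(C)-binding proteins, which are known for splicing control in the nucleus and for effects on the stability and translation of mRNAs in the cytoplasm. Several KH domains of 1 protein can contact neighbouring C tracts. In PAR-CLIP the RNA is trimmed with RNase T1, which cuts after G, and a cluster needs uridines for the crosslink, so G and U also shape which cytosine-rich stretches can be seen.

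The cytosine-rich sites are best seen in their sequences. The following 10 sites had a cytosine-rich cluster in all 4 libraries and the highest mean level, at 1 site per gene. Each line gives the stretch of at most 30 nt with the most C, 5′ to 3′ on the transcribed strand and written with T for U, and capitals mark C tracts of 3 or more.
*PHLDA1*, coding: ccacatccacatccacactctcatcctcac
*CPSF7*, 3′UTR: ccttCCCtttcctccaaaCCCCtaactCCC
*ZC3H11A*, 3′UTR: CCCattCCCCactctcattacactCCCacc
*TGOLN2*, 3′UTR: cctcatacaccttcctcactaCCCCaCCCC
*PTGES3*, 5′UTR: CCCCttttcctacactttcctcttctCCCC
*TPM3*, 3′UTR: gctttctcctttcaccaCCCCCtccttCCC
*YWHAE*, 3′UTR: ctccttCCCCCtCCCCCtacctccttCCCC
*C19orf43*, 3′UTR: cttcctcttctcaCCCtcctCCCtCCCCtt
*SAMD4A*, intron: ttatCCCtcaccatCCCCactccttCCCCC
*MRPS6*, intron: CCCtCCCtttccacaataCCCCaccacctc
In 9 of these 10 stretches there were at least 2 tracts, and the bases between them were mostly T, A and further C alone or in pairs. The stretch of *PHLDA1* held no tract of 3, and its cytosines stood singly or in pairs.

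The other end of the range is shown by the most cytosine-rich clusters of at least 20 reads. The highest share of C, 79.3%, belonged to a cluster of the *KRT19* KO cytoplasm outside any annotated gene (GRCh37, chr13:112758161-112758189, minus strand), and the parental cytoplasm and the *KRT19* KO nucleus listed the same site at 76.7% and 77.8%. It was the most cytosine-rich cluster of at least 20 reads in these 3 libraries, while the parental nucleus listed no cluster there. The *KRT19* KO nucleus cluster was also within 2 edits of the ribosomal RNA contig of GRCh37, and whether reads of ribosomal RNA entered it was not tested. The next examples are intronic or in 3′UTRs and were chosen by the same rule.
No gene, chromosome 13: CCCCtcctcctCCCCgcgCCCCCgCCCCC
*RICTOR*, intron: tCCCtcacctcctCCCaaactCCCCCCacc
*SP2*, 3′UTR: ctcctCCCtctCCCttcacctcaCCCC
*CLPTM1*, intron: cctctCCCtctCCCacaccaccacc
*FARS2*, intron: ctccaccacaCCCacctCCCaCCCC
The chromosome 13 cluster was the only one of these 5 with CG steps between its tracts. *RICTOR*, the defining subunit of mTOR complex 2, had its site in all 4 libraries, at 36 reads in the parental cytoplasm, 14 in the *KRT19* KO cytoplasm, 29 in the parental nucleus and 23 in the *KRT19* KO nucleus.

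Among themselves the sites were alike in composition in all 4 libraries. Their bases were 54.0% C in either cytoplasm, 54.2% in the parental nucleus and 54.7% in the *KRT19* KO nucleus, against 25.8 to 28.9% over all clusters. The extra C stood mostly in the place of A, which fell to between 15.6 and 17.1% from 29.5 to 32.9% over all clusters. T was at 24.0 to 26.0% in place of 33.9 to 36.0%, and G at 3.94 to 4.95% in place of 6.78 to 9.06%. Most cytosine-rich clusters lay close to the limit. A C share of at least 60% was found in 10.2 and 10.7% of them in the parental and *KRT19* KO cytoplasm, and in 11.3 and 14.2% in the parental and *KRT19* KO nucleus.

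The cytosines were arranged in several short tracts more often than in 1 long run. At least 2 tracts of 3 or more C were present in 72.8 to 78.7% of the cytosine-rich clusters, at least 3 tracts in 26.0 to 35.1%, and a run of 6 or more in only 4.66 to 5.57%. The median of the longest run was 4 nt in each library. From the start of 1 tract to the start of the next, the median distance was 7 nt and the most frequent was 5 nt in each library. TCCC was in 80.3 to 84.2% of the cytosine-rich clusters and in 28.4 to 33.0% of all clusters, and CCCT was in 64.4 to 69.1% and 20.2 to 24.1%. These words and the tracts are made of the base the sites were chosen for, so their shares, numbers and spacing are a description. Repeats were rare. CT 4 times in a row occurred in 0.890 to 1.41% of the cytosine-rich clusters, CCCCTCCCC in 2.22 to 2.36% and CCCCACCCC in 1.66 to 1.81%, while CCCT 3 times in a row reached no more than 0.266% and the telomere-type CCCTAA repeat was found in 4 clusters in all.

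In the plot of cytosine around the clusters, cytosine rose above 50% over the cytosine-rich clusters and fell off towards the flanks. The sites were chosen for at least 50% C inside the cluster, so this rise follows from the choice and is a description. Between 20 and 100 nt outside the cluster, C made up 25.0 and 25.5% of the genome sequence on the same strand for the parental and *KRT19* KO cytoplasm, and 26.1 and 25.8% for the parental and *KRT19* KO nucleus. Around the other clusters the share was 19.5 to 20.4%. The flanks were also richer in G, at 20.9 to 21.5% against 19.0 to 19.9%. Sites in 5′UTRs had the most C in their flanks, 34.6 to 36.3%, and intronic ones the least among the exon and intron classes, 23.4 to 25.2%. RNase T1 leaves a G at the 3′ end of its fragments. A final G was present in 44.2 and 46.5% of the cytosine-rich clusters of the parental and *KRT19* KO cytoplasm, against 49.5 and 50.4% of all clusters, and in 41.3 and 42.3% of those of the parental and *KRT19* KO nucleus, against 45.5 and 44.2%. The choice for C leaves less room for G, so these shares are a description too.

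**Figure D1:**
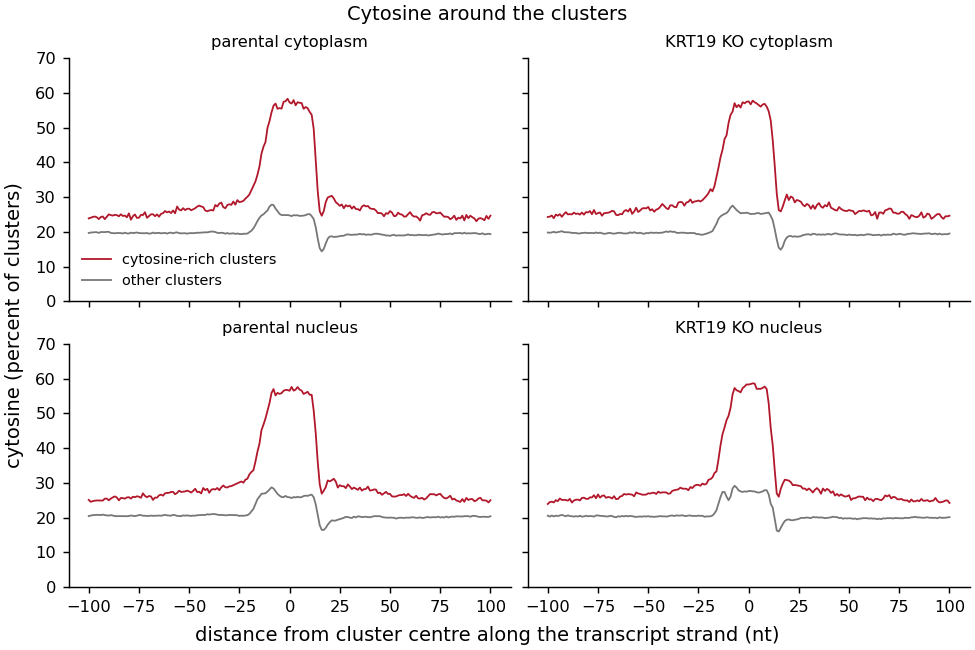
Percent of clusters with a cytosine at each position from 100 nt upstream to 100 nt downstream of the cluster centre, along the transcript strand, in the 4 libraries. Cytosine-rich clusters (red) rise above 50% over about the length of a cluster, which follows from the choice of sites. They stay above the other clusters (grey) at every distance plotted beyond that length, with mean flanking levels of 25.0 to 26.1% against 19.5 to 20.4%.

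Cytosine-rich sites took a larger share of the nuclear than of the cytoplasmic libraries. They numbered 8500 of 200437 clusters (4.24%, 95% interval 4.15 to 4.33%) in the parental cytoplasm and 7361 of 175065 (4.20%, 4.11 to 4.30%) in the *KRT19* KO cytoplasm. In the nuclei they numbered 12766 of 199491 (6.40%, 6.29 to 6.51%) for parental and 17082 of 198269 (8.62%, 8.49 to 8.74%) for *KRT19* KO cells. The 2 cytoplasmic shares overlapped within counting error, and each nuclear share was above both of them. Weighted to a common distribution of cluster lengths, the nuclear values were 7.15% and 7.97%, closer to each other than without weighting. The median length was 29 nt for all clusters of the parental nucleus and 25 nt for the *KRT19* KO nucleus.

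The reads followed the same order. Clusters of 20 nt or longer held 5541306 reads in the parental cytoplasm, 6193431 in the *KRT19* KO cytoplasm, 3525355 in the parental nucleus and 3241881 in the *KRT19* KO nucleus. Of these, 3.04%, 2.52%, 7.07% and 8.84% lay in cytosine-rich clusters. The cytoplasmic share was thus 0.430 times the nuclear share in parental cells and 0.285 times in *KRT19* KO cells. The parental cytoplasm held 1 cluster of 323758 reads, 5.84% of its reads, that was not cytosine-rich, and without the largest cluster of each library the ratios were 0.455 and 0.287. Reads at a site follow both the amount of the RNA in a fraction and its binding, which cannot be told apart here.

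The labels were checked where the data allow it. *KRT19* had 1 cluster of 7 reads in the parental cytoplasm, 1 of 5 reads in the *KRT19* KO cytoplasm and none in either nucleus, too few to check the genotype. For the fractions the picture was mixed. *NEAT1*, a nuclear RNA of paraspeckles, had 225 and 201 reads per 1000000 reads in clusters (RPM) in the parental and *KRT19* KO cytoplasm and 792 and 1095 in the parental and *KRT19* KO nucleus. *MALAT1*, a nuclear RNA of speckles, went the other way, with 1232 and 845 RPM in the cytoplasmic and 887 and 550 RPM in the nuclear libraries. How pure the fractions were was not tested. The parental cytoplasm also listed no cluster on contigs outside the standard chromosomes, while the other 3 libraries listed 221 to 269. It alone had 215 stretches of 100 kb with at least 5 clusters where the others had none, against 2, 4 and 5 such stretches in the *KRT19* KO cytoplasm, the parental nucleus and the *KRT19* KO nucleus. These 215 stretches held 227 of its cytosine-rich clusters. Without such stretches its cytosine-rich share was 4.20%, and that of the *KRT19* KO cytoplasm 4.21%.

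By annotation, 5′UTRs stood apart. Cytosine-rich clusters made up 18.0% (15.0 to 21.5%) of 549 5′UTR clusters in the parental cytoplasm and 20.9% (18.2 to 24.0%) of 764 in the *KRT19* KO cytoplasm. In the nuclei they were 21.6% (18.5 to 25.0%) of 598 for parental and 23.9% (20.6 to 27.6%) of 569 for *KRT19* KO cells. Each interval lay far above the share over all clusters of its library. The 5′UTR share of the cytosine-rich clusters was 4.25, 4.98, 3.37 and 2.77 times that of all clusters in the parental cytoplasm, *KRT19* KO cytoplasm, parental nucleus and *KRT19* KO nucleus. In absolute terms 5′UTRs stayed a small class, with 99, 160, 129 and 136 cytosine-rich clusters.

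Coding sequence was raised to a lesser degree, at 1.36, 1.62, 1.57 and 1.55 times its share of all clusters in the same order. Of the coding clusters, 5.76% and 6.82% were cytosine-rich in the parental and *KRT19* KO cytoplasm, and 10.1% and 13.4% in the parental and *KRT19* KO nucleus. The 3′UTRs differed by fraction. They made up 7.71% of the cytosine-rich clusters against 10.7% of all clusters in the parental cytoplasm and 11.7% against 16.0% in the *KRT19* KO cytoplasm. In the nuclei the order was the opposite, at 4.83% against 3.86% in parental and 4.65% against 4.05% in *KRT19* KO cells, and none of these 4 pairs of intervals overlapped. Weighted by reads the shares were larger, at 24.2% against 31.7%, 29.1% against 47.5%, 7.98% against 5.35% and 7.27% against 5.44% in the parental cytoplasm, *KRT19* KO cytoplasm, parental nucleus and *KRT19* KO nucleus. With only the largest cluster of each gene, the cytosine-rich share was the lower one in all 4 libraries, at 12.2% against 30.3%, 17.9% against 36.9%, 7.59% against 9.62% and 8.27% against 10.9%, so the order in the nuclei turned. Only 3.07% and 3.08% of the cytoplasmic 3′UTR clusters were cytosine-rich, as compared with 7.99% and 9.91% of the nuclear ones. Just below the limit, at a C fraction of 0.45 to 0.5, 3′UTRs made up 8.31% and 12.4% of the parental and *KRT19* KO cytoplasmic clusters. In the nuclei they made up 4.19% and 3.98% there. The low 3′UTR share in the cytoplasm was thus not particular to the cytosine-rich clusters. Introns were the largest class of the sites, with 61.7% in parental and 48.6% in *KRT19* KO cytoplasm, and 64.4% in parental and 56.4% in *KRT19* KO nucleus. Their share of all clusters was close in the cytoplasm, at 61.2% and 49.8%, and higher in the nuclei, at 67.4% and 61.9%. A further 18.6 to 28.4% of the sites had no annotation.

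**Figure D2:**
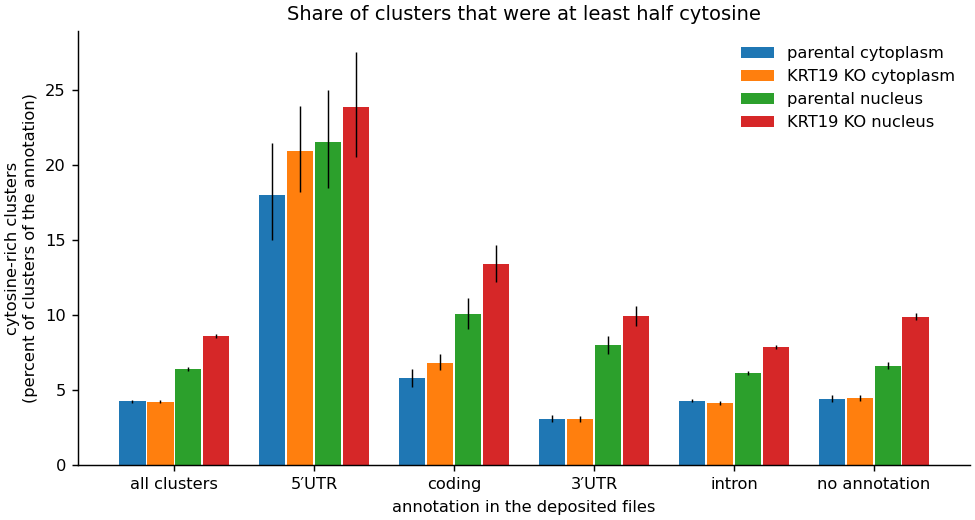
Percent of the clusters of each annotation that were cytosine-rich, by library, with 95% Wilson intervals as error bars. The bars for 5′UTRs reach 18.0 to 23.9%, against 4.20 to 8.62% over all clusters, and the cytoplasmic bars for 3′UTRs are the lowest.

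Within genes, the sites lay nearer to transcript starts and to 3′ splice sites than other clusters did, as read from the GENCODE annotation. A transcript start within 1000 nt on the same strand was found for 14.8% and 17.2% of the cytosine-rich clusters of the parental and *KRT19* KO cytoplasm and for 16.3% and 15.1% of those of the parental and *KRT19* KO nucleus. Over all clusters it was found for 9.62%, 10.4%, 10.7% and 10.4%. Among intronic clusters alone the ratio was 1.44 to 1.48. The 50 nt upstream of a 3′ splice site, where the polypyrimidine tract lies, held 1.83% and 1.84% of the intronic cytosine-rich clusters of the parental and *KRT19* KO cytoplasm and 2.98% and 3.19% of those of the nuclei. For all intronic clusters the shares were 0.946% and 0.973% in the cytoplasm and 1.47% and 1.69% in the nuclei, so the ratio was 1.89 to 2.02 and each pair of intervals was apart. The counts behind it were 96, 66, 245 and 308 clusters. Downstream of 5′ splice sites the share within 50 nt was 1.32 to 1.69 times that of all intronic clusters, and for the parental cytoplasm the 2 intervals overlapped. Near the ends of 3′UTRs there was little difference. The last 200 nt held 21.3 to 22.3% of the cytosine-rich and 18.7 to 21.3% of all 3′UTR clusters.

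The share of cytosine-rich clusters also varied by chromosome. It was highest among the autosomes on the gene-dense chromosome 19, at 11.8% of 21285 clusters over the 4 libraries, with chromosomes 22 (9.85%), 16 (9.10%) and 17 (8.51%) next in these pooled counts, and lowest on chromosome 4 (4.03%). The order after chromosome 19 differed between libraries, and in the parental cytoplasm chromosome 17 (6.43%) came before 22 (6.38%). Chromosome 19 was first among the autosomes in each library, from 8.34% in the parental cytoplasm to 16.9% in the *KRT19* KO nucleus. Of the mitochondrial clusters, 2 were cytosine-rich, both in the parental nucleus.

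Most cytosine-rich clusters were small. Their median was 10 reads in the parental cytoplasm, the *KRT19* KO cytoplasm and the *KRT19* KO nucleus and 11 in the parental nucleus, within 1 read of the median of all clusters. The upper end differed by fraction. At least 100 reads were reached by 1.92% of the cytosine-rich and 2.85% of all clusters in the parental cytoplasm and by 2.59% and 4.56% in the *KRT19* KO cytoplasm, but by 1.77% and 1.24% in the parental and 1.07% and 0.710% in the *KRT19* KO nucleus. In each library the cytosine-rich clusters rested on more unique reads per read, 38.9, 52.8, 25.8 and 23.9% for the parental cytoplasm, *KRT19* KO cytoplasm, parental nucleus and *KRT19* KO nucleus, and over all clusters the values ran from 19.0% in the *KRT19* KO nucleus to 45.6% in the *KRT19* KO cytoplasm. Clusters with a single unique read were fewer among them, at 15.9, 7.34, 24.3 and 29.1% against 26.5, 14.2, 37.9 and 38.7%.

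Converted positions were denser per uridine, though not per cluster in the cytoplasm. Per cluster their mean number was 1.98 and 2.43 in the parental and *KRT19* KO cytoplasm, against 2.03 and 2.87 over all clusters. In the parental and *KRT19* KO nucleus it was 1.72 and 1.49, against 1.47 and 1.35. The median cytosine-rich cluster held 6 or 7 T, against 9 or 10 over all clusters. Per 100 T it had 27.8 and 37.1 positions with conversions in the parental and *KRT19* KO cytoplasm and 24.0 and 23.9 in the parental and *KRT19* KO nucleus, as compared with 19.7, 29.5, 14.6 and 15.2 over all clusters. Each cluster needs conversions to be called, and the choice for C leaves fewer T. The higher values per T thus follow at least in part from the choice and are a description. T-to-C reads were 68.0% and 64.0% of the reads of cytosine-rich clusters in the parental and *KRT19* KO cytoplasm, above the 66.4% and 59.6% of all clusters. In the nuclei they made up 70.7% and 73.7%, below 72.8% and 76.7%.

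Cytosine-rich clusters overlapped clusters of other libraries more often than all clusters did, by a margin that was wide in the cytoplasm and narrow in the *KRT19* KO nucleus. Overlap of 1 nt or more, strand for strand, with a cluster of any other library counted as sharing. This held for 58.1% (57.0 to 59.1%) of the cytosine-rich clusters of the parental cytoplasm and 60.8% (59.7 to 61.9%) of those of the *KRT19* KO cytoplasm, against 43.4% and 47.1% of all clusters. The nuclear values were 46.0% (45.1 to 46.8%) for parental and 39.9% (39.1 to 40.6%) for *KRT19* KO cells, against 37.8% and 36.6%. By annotation, the *KRT19* KO nucleus gave no excess in 3′UTRs (63.9% against 65.9%) or 5′UTRs (41.2% against 42.9%). It did so in coding sequence (52.4% against 43.2%), introns (44.8% against 39.7%) and clusters without annotation (26.3% against 24.7%). Sharing rose with reads, so other clusters were also weighted to the read distribution of the cytosine-rich ones. The excess over them was then 15.5 percentage points for either cytoplasm, 6.89 in the parental nucleus and 2.72 in the *KRT19* KO nucleus.

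The excess in the cytoplasm came with overlap to nuclear clusters. Of the cytosine-rich clusters of the parental cytoplasm, 36.1% met one of the parental nucleus and 33.9% one of the *KRT19* KO nucleus, against 21.4% and 19.1% of all clusters. Their overlap with the *KRT19* KO cytoplasm was 27.8%, close to the 25.4% of all clusters. The *KRT19* KO cytoplasm gave the same pattern, with 36.7% in the *KRT19* KO nucleus and 35.1% in the parental nucleus against 22.0% and 21.6%, and 32.1% against 29.0% in the parental cytoplasm. The nuclei overlapped each other at 29.2% of the cytosine-rich clusters of the parental and 25.1% of those of the *KRT19* KO nucleus, against 18.8% and 19.0% of all clusters. Towards the cytoplasm the nuclear clusters showed little or no excess. Those of the parental nucleus met the parental cytoplasm at 23.7% against 21.5% and the *KRT19* KO cytoplasm at 20.4% against 18.9%, and those of the *KRT19* KO nucleus met them at 19.3% against 19.3% and at 18.5% against 19.4%. In counts the directions were closer. In parental cells 3069 of 8500 cytoplasmic cytosine-rich clusters met the nucleus, and 3026 of 12766 nuclear ones met the cytoplasm. In *KRT19* KO cells these were 2701 of 7361 and 3162 of 17082. The contrast between the directions thus largely restates the larger number of cytosine-rich clusters in the nuclei and is a description. Read by read count, the cytosine-rich clusters of the cytoplasm lay above the others from 5 reads up to 50 to 99 reads. At 100 reads or more the parental cytoplasm gave 88.3% against 91.0%, and of its 163 cytosine-rich clusters of that size 19 were not shared. The *KRT19* KO cytoplasm gave 93.7% against 87.6% there. In the *KRT19* KO nucleus the 2 kinds were close below 10 reads, with 17.7% against 19.5% at 5 reads and 24.0% against 23.5% at 6 to 9 reads, and again from 50 to 99 reads (88.4% against 89.6%) and at 100 or more (89.6% against 91.5%). In between, the cytosine-rich ones were higher, with 40.3% (39.0 to 41.6%) against 34.0% (33.7 to 34.4%) at 10 to 19 reads and 70.7% (69.1 to 72.3%) against 66.3% (65.7 to 66.8%) at 20 to 49 reads.

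**Figure D3:**
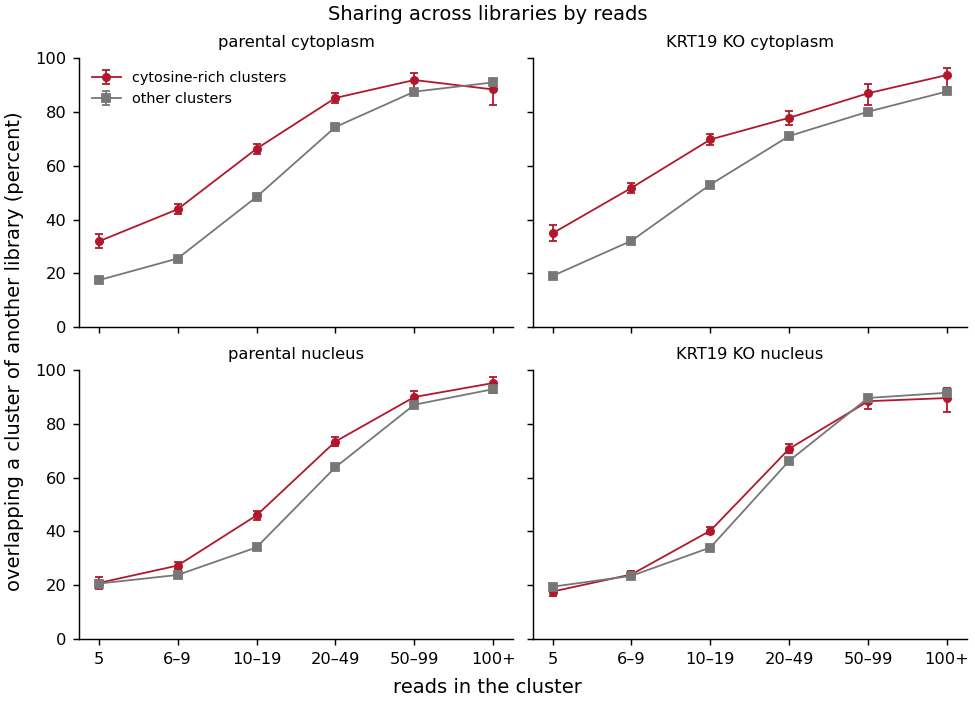
Percent of clusters that overlap a cluster of another library on the same strand, by the number of reads in the cluster, for cytosine-rich clusters (red) and other clusters (grey), with 95% Wilson intervals. The 2 curves are apart at low reads in the cytoplasm, for example 43.8% against 25.5% at 6 to 9 reads in the parental cytoplasm, and nearer each other in the *KRT19* KO nucleus, where 10 to 19 reads gave 40.3% against 34.0%.

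When overlapping clusters of the 4 libraries were merged, 34947 of 588319 sites held a cytosine-rich cluster. Of these sites, 67.6% were listed in 1 library, 19.7% in 2, 9.38% in 3 and 3.30% in all 4, against 77.4%, 15.4%, 5.44% and 1.67% of all sites. A site listed in more libraries had more clusters that could be cytosine-rich, so these shares are a description and show no excess by themselves. Counted by the libraries in which the cluster was itself cytosine-rich, the shares were 77.8%, 15.1%, 5.52% and 1.54%. The *KRT19* KO nucleus alone accounted for 10271 sites (29.4%) and the parental nucleus alone for 6897 (19.7%), as compared with 21.4% and 21.1% of all sites. A site listed in 1 library counts through that library alone, and the *KRT19* KO nucleus had the largest share of cytosine-rich clusters. These values are therefore a description too. The cluster was itself cytosine-rich in all 4 libraries at 538 sites, 336 of them intronic, 97 without annotation, 53 in 3′UTRs, 20 in coding sequence and 9 in 5′UTRs. The library with the highest RPM was the parental nucleus at 244 of these sites, the *KRT19* KO nucleus at 228, the *KRT19* KO cytoplasm at 37 and the parental cytoplasm at 29. No such count is given over all sites, so these counts are a description. All sites leaned to the nucleus too, with a median log2 ratio of cytoplasm over nucleus of -0.65 in parental and -0.93 in *KRT19* KO cells.

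Exonic sites led by level. At *PHLDA1* (chr12:76424430-76424468, minus strand), which encodes a pleckstrin homology-like domain protein, the level was 61.4 RPM in the parental cytoplasm, 334 in the *KRT19* KO cytoplasm, 59.3 in the parental nucleus and 62.6 in the *KRT19* KO nucleus. The *KRT19* KO cytoplasm was the high library and the other 3 lay close together. *CPSF7*, a subunit of the cleavage factor that helps to set mRNA 3′ ends, had its 3′UTR site (chr11:61172028-61172091, minus strand) at 87.2, 113, 135 and 107 RPM in the same order of libraries, the most even of the 10. *ZC3H11A* (chr1:203765488-203765526, plus strand), a zinc finger protein linked to mRNA export, was at 85.0, 134, 113 and 33.3 RPM, with the *KRT19* KO nucleus as the low library. *TGOLN2*, a membrane protein of the trans-Golgi network, gave 115, 110, 85.9 and 31.2 RPM and was low in the same library.

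Several 3′UTR sites were higher in the cytoplasm. *TPM3*, a tropomyosin, was at 120 and 117 RPM in the parental and *KRT19* KO cytoplasm and at 25.5 and 25.9 RPM in the nuclei. *C19orf43* showed nearly the same, 110 and 105 RPM against 19.3 and 25.9 RPM. *YWHAE*, a 14-3-3 adaptor protein, was at 149 and 67.8 RPM in the parental and *KRT19* KO cytoplasm and at 46.8 and 11.1 RPM in the parental and *KRT19* KO nucleus, so that the parental value was above the *KRT19* KO value in both fractions. The 5′UTR site of *PTGES3*, the HSP90 co-chaperone p23, was at 94.0 and 78.5 RPM in the cytoplasm and 60.1 and 57.4 RPM in the nuclei.

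The 2 intronic sites were higher in the nuclei. *SAMD4A*, an RNA-binding translational repressor, was at 52.3 and 7.91 RPM in the parental and *KRT19* KO cytoplasm and at 111 and 64.2 RPM in the parental and *KRT19* KO nucleus. *MRPS6*, a protein of the mitochondrial ribosome, was at 23.1 and 14.7 RPM in the cytoplasm and 111 and 72.5 RPM in the nuclei. At both sites the parental library was the higher of the 2 in each fraction.

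**Figure D4:**
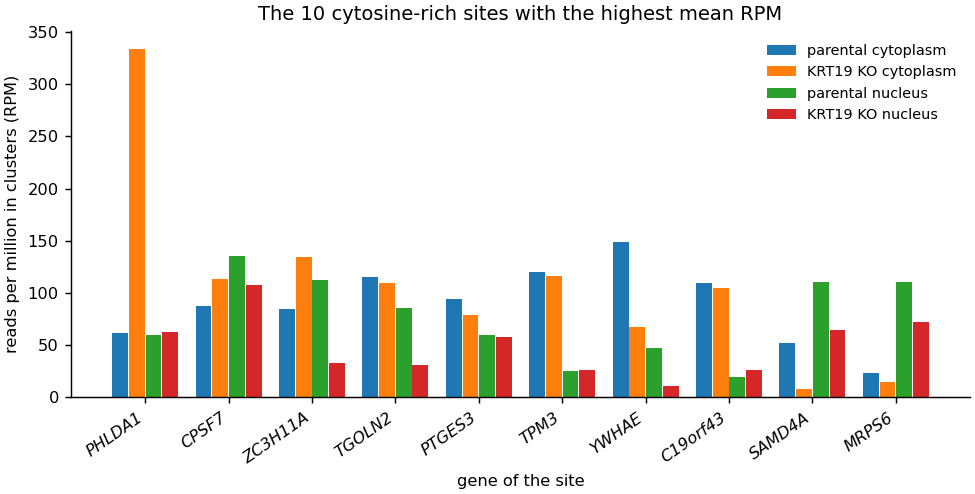
Level of the 10 cytosine-rich sites with the highest mean, in reads per 1000000 reads in clusters, in each of the 4 libraries, with 1 library per bar and no error. *PHLDA1* stands out at 334 RPM in the *KRT19* KO cytoplasm, and *SAMD4A* and *MRPS6*, the intronic sites, are highest in the parental nucleus at 111 RPM.

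The clusters with the most reads in a library were often far smaller elsewhere. *LARP4*, an RNA-binding protein of the La-related family, had a 3′UTR site (chr12:50870860-50870904, plus strand) of 1999 reads in the parental cytoplasm, 2334 in the *KRT19* KO cytoplasm, 156 in the parental nucleus and no cluster in the *KRT19* KO nucleus. *ATF4*, the transcription factor of the integrated stress response, had a coding site (chr22:39918015-39918059, plus strand) of 1801 reads in parental and 2682 in *KRT19* KO cytoplasm, against 252 and 241 in the nuclei. The nuclear clusters of *ATF4* were below 50% C. Both sites were thus cytoplasmic in read number, and both stretches held 2 or more C tracts.
*LARP4*: ccttccttCCCtcctcttctCCCCCCacac
*ATF4*: CCCCCttcaccttcttacaacctcttCCCC
*EIF4G2*: tCCCCtttCCCCtCCCttCCCtatCCCCg
*BCL2L1*: cattttCCCCCCactctCCCCacactaacc
*TRAPPC12*: aCCCattaccatCCCCactccatCCCCCac
The last 3 are shown because each was among the 3 largest of 1 library and had no overlapping cluster in the others. *EIF4G2*, a translation initiation factor of the eIF4G family, had 626 reads in its 5′UTR (chr11:10830307-10830335, minus strand) in the *KRT19* KO nucleus. *BCL2L1*, which encodes the apoptosis regulator BCL-X, had 510 reads in its 3′UTR (chr20:30253287-30253318, minus strand) in that library. *TRAPPC12*, a subunit of a vesicle trafficking complex, had 852 reads in an intron (chr2:3459246-3459280, plus strand) in the parental nucleus. A missing cluster means that none was called there, not that no read was found.

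A few of the largest clusters need care. The 3′UTR site of *TUBB*, a beta tubulin, had 1982 reads in the parental cytoplasm only, and it lay in one of the 215 stretches of 100 kb where only that library listed clusters. The largest cytosine-rich cluster of the parental cytoplasm, without annotation (chr7:68801318-68801344, plus strand), had 2738 reads, 99.7% of them with a T-to-C change, against 39 reads in the *KRT19* KO cytoplasm, 31 in the *KRT19* KO nucleus and no cluster in the parental nucleus. The largest of the *KRT19* KO nucleus, 2050 reads in a pseudogene at *hsa-mir-6723* (chr1:566756-566791, plus strand), was 1 edit away from the mitochondrial genome. The site was cytosine-rich in that library only, and the clusters of 786, 950 and 708 reads in the parental cytoplasm, *KRT19* KO cytoplasm and parental nucleus were below 50% C. Within 2 edits of the ribosomal RNA contig of GRCh37 lay 43, 47, 34 and 68 cytosine-rich clusters of the parental cytoplasm, *KRT19* KO cytoplasm, parental nucleus and *KRT19* KO nucleus, with 0.178 to 0.745% of the cytosine-rich reads, so that near copies of ribosomal RNA were a small part of the sites.

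Compared between the fractions of 1 cell line, cytosine-rich sites were shifted towards the nucleus. A site entered this comparison when it had a cluster in both libraries and at least 20 reads in the pair, and a 2-fold difference in RPM was counted. It counted as cytosine-rich when a cluster of either library was cytosine-rich, not necessarily of both. The same rule held for the comparison of cell lines below. Some sites, such as that of *PSMC2*, qualified through the nucleus alone, and how many did is not given. How far this rule shaped the shift was not tested. In parental cells, 3067 cytosine-rich sites had a median log2 ratio of cytoplasm over nucleus of -1.20, against -0.65 over 36082 sites. At least 2-fold lower in the cytoplasm were 1753 of them, or 57.2% (55.4 to 58.9%), against 39.7% of all sites, and at least 2-fold higher were 166, or 5.41% (4.67 to 6.27%), against 12.6%. In *KRT19* KO cells, 2945 cytosine-rich sites had a median of -1.51, against -0.93 over 31947 sites. At least 2-fold lower were 62.4% (60.7 to 64.2%), against 49.3%, and at least 2-fold higher were 9.81% (8.79 to 10.9%), against 15.0%. With at least 100 reads in the pair, the *KRT19* KO median was 0.02 against 0.96 over all sites, so its sign turned while it stayed below that of all sites. The *KRT19* KO shares were then 38.3% lower and 35.1% higher, against 24.2% and 49.3% of all sites, and in parental cells the share higher was 13.8%, against 29.1%. Sites with at least 20 reads were also grouped by the C share of the cluster with the most reads. Those of 50 to 60% C had medians of -1.23 in parental and -1.64 in *KRT19* KO cells, again below those of all sites.

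The shift was present within annotation classes. In 3′UTRs, which were mostly higher in the cytoplasm, 281 cytosine-rich sites had a median of 0.44 in parental cells against 1.54 over 3045 sites, and 379 had a median of 0.90 in *KRT19* KO cells against 1.81 over 3909 sites. In introns the medians were -1.35 against -0.81 in parental and -1.88 against -1.30 in *KRT19* KO cells. Coding sites gave -0.92 against 0.04 in parental and 0.43 against 0.63 in *KRT19* KO cells, over 86 and 151 cytosine-rich sites. The 5′UTRs, with 36 and 35 cytosine-rich sites, gave -0.51 against -0.32 and 0.07 against -0.08, and had no common direction.

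The ratio of 3′UTR sites also declined with the C share below the 50% limit. Binned by the C share of the cluster with the most reads, the median log2 ratio of 3′UTR sites in parental cells was 2.33 at 10 to 20% C, 1.81 at 20 to 30%, 1.29 at 30 to 40%, 0.75 at 40 to 50% and 0.14 at 50 to 60%. The 21 sites of 60% C or more were at 0.35. In *KRT19* KO cells the medians of the same 5 bins were 2.51, 2.10, 1.50, 0.99 and 0.14, with the widest gap between neighbouring bins at the 50% limit. Intronic medians over the same range dropped from -0.56 to -1.33 for parental and from -1.03 to -1.93 for *KRT19* KO cells. Sites under 10% C lay below those of 10 to 20% in 3′UTRs, introns and sites without annotation, in both cell lines. Coding sites did not fall steadily, and from 10 to 60% C their medians lay between -0.65 and 0.40 in parental cells and between 0.31 and 0.94 in *KRT19* KO cells.

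**Figure D5:**
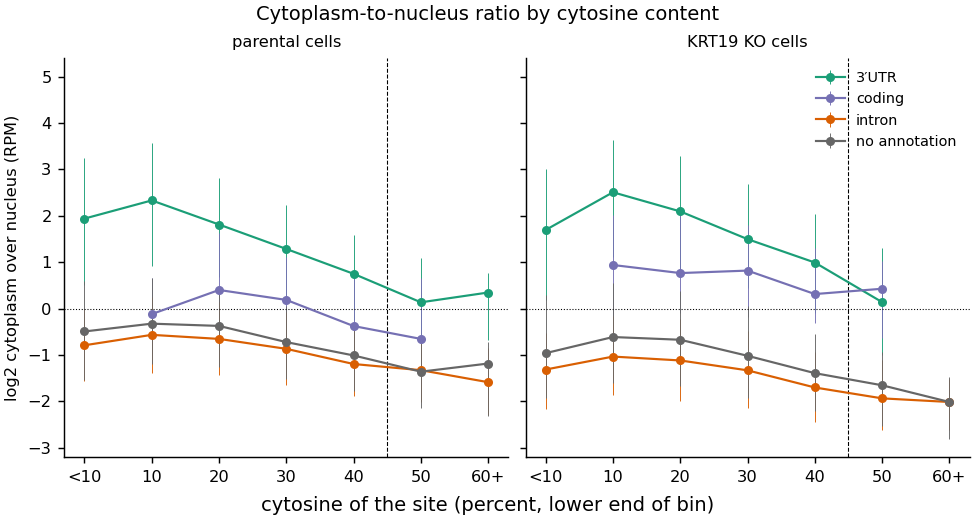
Median log2 ratio of cytoplasm over nucleus, in RPM, of sites binned by cytosine content, in parental and *KRT19* KO cells. Thin bars give the quartiles, bins under 20 sites are left out, and the dashed line marks 50% C. In 3′UTRs the medians fall from 2.33 and 2.51 at 10 to 20% C to 0.14 in both cell lines at 50 to 60% C.

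At single sites the differences were large. The 3′UTR site of *PSMC2* (chr7:103009415-103009445, plus strand), an ATPase of the proteasome, was at 148 RPM in the parental cytoplasm and 14.8 in the parental nucleus, a log2 ratio of 3.32, and at 87.7 and 6.48 RPM in *KRT19* KO cells. Its clusters were cytosine-rich in the nuclei only, at 52 reads in parental and 21 in *KRT19* KO cells, and the larger cytoplasmic clusters were below 50% C. In the other direction, *CAD*, which catalyses the first steps of pyrimidine synthesis, had an intronic site (chr2:27454288-27454322, plus strand) at 1.99 RPM in the parental cytoplasm and 95.3 in the parental nucleus, a log2 ratio of -5.59, and at 1.13 and 28.1 RPM in *KRT19* KO cells. Both sites kept their direction in both cell lines.
*PSMC2*: cctatcttctaccacaattaCCCCttCCCC
*CAD*: caCCCCttccacctccacaccttcattcct
The site highest in the *KRT19* KO cytoplasm over its nucleus was in the 3′UTR of *RAB5B*, an endosomal GTPase, at 277 and 7.09 RPM (log2 ratio 5.29), but the parental cytoplasm listed no cluster there. Only the *KRT19* KO nucleus cluster, of 23 reads, was cytosine-rich, and the cytoplasmic cluster of 1718 reads was below 50% C. The intronic *DLGAP4* site, also among the 3 furthest in that direction at 63.6 and 2.16 RPM, had a T-to-C change in 98.2% of its reads and lay within 2 edits of the ribosomal RNA contig.

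Between *KRT19* KO and parental cells the cytosine-rich sites moved much as all sites did in the nucleus, and less closely so in the cytoplasm. In the cytoplasm, 2263 cytosine-rich sites had a median log2 ratio of *KRT19* KO over parental of -0.31 against -0.16 over 42119 sites. At least 2-fold higher were 16.9% (15.4 to 18.5%) against 17.0% of all sites, and at least 2-fold lower 28.3% (26.5 to 30.2%) against 24.5%. With at least 100 reads in the pair the direction turned for cytosine-rich and for all sites alike, with medians of 0.35 and 0.23, 30.9% against 24.4% higher and 18.8% against 14.98% lower. In the nucleus, 4097 cytosine-rich sites had a median of -0.04 against -0.01 over 32010 sites, with 21.4% (20.2 to 22.7%) against 22.3% higher and 23.1% (21.8 to 24.4%) against 22.5% lower. With at least 20 reads, the shares in the nucleus and the share higher in the cytoplasm were thus near those of all sites. The share lower in the cytoplasm was above that of all sites, and with at least 100 reads the share higher was too. By class, the cytoplasmic median was 0.57 in 3′UTRs, 0.92 in coding sequence and -0.75 in introns, and over all sites of these classes it was 0.46, 0.97 and -0.58.

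Single sites again departed from these medians. A coding site of *CPSF7* (chr11:61183733-61183823, minus strand) was at 58.6 RPM in the *KRT19* KO and 1.99 RPM in the parental cytoplasm, and at 1.85 and 4.25 RPM in the *KRT19* KO and parental nucleus. Its clusters were cytosine-rich in the *KRT19* KO libraries only. *ETV5*, an ETS transcription factor, had a coding site at 65.7 against 2.71 RPM in the cytoplasm and 28.1 against 8.79 RPM in the nucleus, so the *KRT19* KO library was the higher one each time. The parental cytoplasm cluster was below 50% C. The intronic site of *MGAT5B*, a glycosyltransferase, was at 2.91 RPM in the *KRT19* KO and 28.9 RPM in the parental cytoplasm, and the *KRT19* KO nucleus listed no cluster there, against 55.0 RPM in the parental nucleus. The 3′UTR site of *ABL2*, a tyrosine kinase, was at 5.24 RPM in the *KRT19* KO and 134 RPM in the parental nucleus, while the cytoplasmic levels were 544 and 329 RPM. Its cluster was cytosine-rich in the parental nucleus only.

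The sites were spread over many genes. In all, 8617 genes held a cytosine-rich site, or 47.1% of the 18294 genes with any cluster, and 3701 of them held 1. At least 20 were found in 63 genes. The largest numbers were in long genes and nearly all in introns. *CDH4*, a cadherin, held 51 cytosine-rich sites among 409 sites, *CMIP* 48 of 278, *KIRREL3* 46 of 481 and *COL13A1*, a transmembrane collagen, 41 of 210. *TRIO* held 39 of 653, *KAZN* 36 of 375, *ZMIZ1* 36 of 177 and *MSI2*, an RNA-binding protein, 35 of 263. The share of cytosine-rich sites among these 8 ranged from 5.97% in *TRIO* to 20.3% in *ZMIZ1*. In all, 34947 of 588319 sites held a cytosine-rich cluster, and by cluster the share was 5.91%. These 8 genes were chosen for having the most such sites. By cluster, *CDH4* had 17 cytosine-rich clusters in the parental cytoplasm, 5 in the *KRT19* KO cytoplasm, 29 in the parental nucleus and 12 in the *KRT19* KO nucleus.

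The genes of the poly(C)-binding family themselves carried such sites. All 5 had at least 1 cytosine-rich cluster, as did 47.1% of all genes with a cluster. In total these were 34 of 288 clusters (11.8%, against 5.91% of all clusters). Most lay in *PCBP2* and *PCBP4*, while *PCBP3*, *PCBP1* and *HNRNPK* were near or below the share of all clusters. A site can be counted in several libraries, and the cytosine-rich clusters of *PCBP2* lay at 10 sites. *PCBP2* led with 21 of 141 clusters, 7 in parental and 5 in *KRT19* KO cytoplasm, and 5 and 4 in the parental and *KRT19* KO nucleus. *PCBP4* had 6 of 11, *PCBP3* 5 of 84, and *PCBP1* 1 of 15, in its 5′UTR. *HNRNPK* had 1 of 37, in an intron, with 5 reads, found in the *KRT19* KO nucleus.
*PCBP2*, intron: CCCttttcctttcctccttttCCCtaCCCC
*PCBP1*, 5′UTR: ttttgggcctacacctCCCCtCCCCCCgcc
Among 22 splicing regulators, 21 had a cluster and 14 a cytosine-rich one, 85 of 1232 clusters (6.90%, near the 5.91% of all clusters). Of all genes with a cluster, 47.1% had a cytosine-rich one. *U2AF2*, the large subunit of the factor that binds the polypyrimidine tract, had 21 of 49, *ELAVL1*, the AU-rich element binding protein HuR, 17 of 70, and *SF1*, the branch point binding protein, 11 of 66. *SRSF11*, *PTBP1* and *HNRNPL* had 7 each, of 135, 52 and 26. *HNRNPC* had 2 of 191 and *HNRNPA1* none of 36. *U2AF2* had 3 cytosine-rich clusters of 25 reads in the parental and 3 of 51 reads in the *KRT19* KO cytoplasm, and 9 of 182 and 6 of 287 reads in the parental and *KRT19* KO nucleus.
*U2AF2*, 3′UTR: cctttcttctCCCCttCCCCacg
*SF1*, 3′UTR: gtcttctttctctcctcaCCCaactCCC

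Of 17 genes known for C-rich elements in other cells, 10 had a cluster and 5 a cytosine-rich one, a share near the 47.1% of all genes with a cluster. By cluster it was 12 of 103 (11.7%, against 5.91% of all clusters). *UCP2*, a mitochondrial carrier, had 5 of 18, with 33 reads in the parental cytoplasm, 36 in the *KRT19* KO cytoplasm, 9 in the parental nucleus and 22 in the *KRT19* KO nucleus. *CDKN1A*, the cell cycle inhibitor p21, had 1 in its 3′UTR, 37 reads in the *KRT19* KO cytoplasm, and *COL1A1* 1 of 7 reads in its 3′UTR in the same library. *EPO*, the erythropoietin gene, had 1 of 13 reads in the *KRT19* KO nucleus. *SRC* had 4 of 41, 2 in each nucleus and none in the cytoplasm. Among 5 genes named in the text of the study, *SRC* one of them, 2 had a cytosine-rich cluster and the total was 8 of 227 clusters (3.52%). *EIF4E*, the cap-binding translation factor, had 4 of 83, 1 of 29 reads in the parental nucleus and 3 of 78 reads in the *KRT19* KO nucleus. *MDM2* had none among 87 clusters.
*UCP2*, 3′UTR: ctccttCCCtctttCCCCacctcttccttc
*CDKN1A*, 3′UTR: cttcctcatccaCCCCatCCCtCCCCag
*EIF4E*, intron: tCCCaactcttCCCactcctttccag
The *EIF4E* stretch ends in ag. The site was listed in 3 libraries and was cytosine-rich in the *KRT19* KO nucleus only.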

How the data were processed

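HNRNPK PAR-CLIP was analysed in 4 libraries, and 17 further RNA-seq samples were left aside. According to the methods, the authors collapsed identical reads, removed molecular identifiers, aligned to hg19 and called clusters with PARalyzer in PARpipe, and the deposited files hold 1 library each. The labels name hg38, but the cluster sequences equalled GRCh37 at their positions for all but 1 of the clusters used. The authors deposited raw counts of reads, unique reads and converted reads per cluster, without normalization. The deposited fraction, score and log10 columns were not used.

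Clusters of at least 20 nt on standard chromosomes were kept, and RPM is per 1000000 of their reads. Reads are not independent molecules, so intervals (Wilson, 95%) cover counting error only. Named sites are the 10 with a cytosine-rich cluster in all 4 libraries and the highest mean RPM, the 3 clusters with the most reads and the 3 with the most C (at least 20 reads) per library, the 8 genes with the most sites, the 3 sites furthest in each direction per pair of libraries (at least 100 reads), and fixed gene lists. Of these, a part is printed, and 1 is not reported here. Members and lists were chosen with earlier results of these data known. Overlap was tested on simulated intervals (600 of 600 correct) and merging on simulated sites (434 of 434). Splice sites and transcript starts came from GENCODE release 44 lifted to GRCh37. Alternatives covered the C limit, minimum reads, weights, overlap rule, unique reads and single clusters. Python 3.11.15, pandas 2.3.3, NumPy 2.4.6, SciPy 1.17.1 and pysam 0.24.0 were used.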

Additional observations from a re-analysis of the deposited data

Results flagged for a closer look

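Some differences went opposite ways in the cytoplasm and in the nucleus, and none of these contrasts was tested. From parental to *KRT19* KO cells the share of clusters that were cytosine-rich changed by -0.036 percentage points in the cytoplasm and by 2.22 in the nucleus, and their share of reads by -0.525 and 1.77. The first of these was within counting error and had the opposite sign without the stretches listed in 1 library only. Weighted to common cluster lengths, the changes in the share of clusters were -0.138 and 0.822.

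Cytosine-rich clusters minus all clusters gave an opposite sign in cytoplasm and nucleus for 3 measures. The 3′UTR share differed by -2.94 and -4.28 percentage points in the parental and *KRT19* KO cytoplasm and by 0.962 and 0.608 in the parental and *KRT19* KO nucleus, and with only the largest cluster of each gene it was lower in the nuclei too. The share of reads with T-to-C differed by 1.57 and 4.49 points in the cytoplasm and by -2.13 and -2.97 in the nuclei. The mean number of reads per cluster differed by -7.82 and -14.2 in the cytoplasm and by 1.85 and 0.423 in the nuclei.

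Outside the clusters described above, 168 of 1289, 252 of 2233, 136 of 627 and 125 of 629 clusters shorter than 20 nt were at least 50% C. The order is parental cytoplasm, *KRT19* KO cytoplasm, parental nucleus and *KRT19* KO nucleus. On contigs beyond the standard chromosomes there were 4 cytosine-rich clusters in the *KRT19* KO cytoplasm, 10 in the parental nucleus and 13 in the *KRT19* KO nucleus.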

How the results depend on the processing

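Results are given for the parental cytoplasm, *KRT19* KO cytoplasm, parental nucleus and *KRT19* KO nucleus, in this order. The cytosine-rich share of clusters was 14.04, 14.015, 18.8 and 22.3% with a limit of 40% C and 0.435, 0.448, 0.722 and 1.22% with 60% C, so the nuclei stayed above the cytoplasm. It was 3.04, 2.52, 7.07 and 8.84% weighted by reads, and with at least 10 reads 4.07% in the *KRT19* KO cytoplasm and 8.13% in the *KRT19* KO nucleus. The 3′UTR share of cytosine-rich clusters was 11.2, 17.4, 5.77 and 5.74% with at least 10 reads (all clusters 14.7, 23.1, 4.25 and 4.58%), 12.2, 17.9, 7.59 and 8.27% with 1 cluster per gene (30.3, 36.9, 9.62 and 10.9%, which turns the order in the nuclei, and the cause was not tested) and 24.2, 29.1, 7.98 and 7.27% weighted by reads (31.7, 47.5, 5.35 and 5.44%). The shared percent was 74.9, 74.8, 60.8 and 54.3% with at least 10 reads and 50.2, 52.4, 39.8 and 31.1% when the partner had to be cytosine-rich. The cytoplasm to nucleus ratio of the read share, parental first and *KRT19* KO next, was 0.420 and 0.262 on unique reads and 0.413 and 0.271 without the 5 largest cytosine-rich clusters.

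The share of cytosine-rich sites at least 2-fold higher and lower, with at least 100 reads, was 13.8 and 54.6% for parental cytoplasm over nucleus (all sites 29.1 and 28.6%), 35.1 and 38.3% for *KRT19* KO cytoplasm over nucleus (49.3 and 24.2%), 30.9 and 18.8% for *KRT19* KO over parental cytoplasm (24.4 and 14.98%) and 14.6 and 28.4% for *KRT19* KO over parental nucleus (13.7 and 29.2%). For *KRT19* KO over parental cytoplasm the larger of the shares thus changed from lower to higher, among all sites as well, and the cause was not tested. On unique reads the shares were 13.3 and 31.7% in that comparison (all sites 14.8 and 25.9%), 17.7 and 24.6% for *KRT19* KO over parental nucleus (18.6 and 24.95%), and 59.96% lower for parental cytoplasm over nucleus (39.2%).

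Some alternatives were chosen after seeing the data. Weighted to common lengths, the cytosine-rich share was 4.45, 4.32, 7.15 and 7.97%. The shared percent was 62.2, 65.1, 50.4 and 44.5% when a cluster of any length within 50 nt counted. The excess in sharing over other clusters weighted to the same reads was 15.5 points in the *KRT19* KO cytoplasm, 6.89 in the parental nucleus and 2.72 in the *KRT19* KO nucleus. Without 100 kb stretches listed in 1 library only, 59.7% of the parental cytoplasm was shared and its ratio to the nucleus was 0.421. Without the largest cluster of each library the ratios were 0.455 and 0.287. Of 60 values recomputed under the first set of settings 9, and of 26 under those added, 11 stayed within the 95% interval. By replicate number, no paired analysis was possible because each PAR-CLIP condition had 1 library. The fractions pair by cell line, and a fit of fraction with the cell line as a term, with 1 residual degree of freedom, was not run. A cluster needs at least 5 reads, so sites below that depth are not seen.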
